A study of Homo sapiens with 9 samples.

Results

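The genes described here are 43 genes of epithelial cell junctions, of the keratin filaments that anchor to them, and of the membrane proteases and splicing regulators that go with an epithelial state. They are a list of names that was drawn up with earlier results of these data known, and all 43 were found among the 23710 entries of the deposited count table. By role they are 11 tight junction genes, 5 polarity genes, 8 desmosome genes, 6 adherens junction genes, 7 keratins, 3 genes of a membrane protease and its inhibitors, and 3 genes that are splicing regulators or a mucin. Of the 43, 35 had enough reads to be tested and 8 did not.

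RNA was sequenced from MDA-MB-231, an established human breast cancer cell line that lacks estrogen and progesterone receptors and has a spindle-shaped, mesenchymal form. All 9 cultures were transduced with lentivirus from a pGIPZ vector, a plasmid that expresses a short hairpin RNA. The 3 control cultures carried the non-targeting hairpin shNT, 3 carried shUGDH-1 and 3 carried shUGDH-2, each a hairpin against UGDH, so every group, the controls included, carries a vector and a hairpin. UGDH makes UDP-glucuronate, the sugar donor for hyaluronan and other glycosaminoglycans, and the design asks which transcripts differ when it is depleted. Per the labels the cultures were biological replicates grown in DMEM with 5% FBS. Whether each replicate was transduced on its own is not given in the sources used here, so the tests speak to the spread among these 9 libraries alone.

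Epithelial cells are joined at their sides by a series of structures. Tight junctions, built from claudins, occludin and scaffold proteins, seal the space between cells. Adherens junctions couple cadherins through catenins to actin, and desmosomes couple desmosomal cadherins through plakoglobin, plakophilins and desmoplakin to keratin filaments. Carcinoma cells that have gone through an epithelial-mesenchymal transition lose E-cadherin and many of these proteins, and MDA-MB-231 is widely used as an example of that state.

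Depth ran from 9249738 to 13328002 counts per library, and 12546 genes were tested. UGDH was at 52.95 ± 2.67 CPM (counts scaled to a common library size with TMM factors; SD, n = 3) with shNT, at 7.65 ± 0.37 with shUGDH-1 and at 7.17 ± 0.80 with shUGDH-2. The log2 fold change of UGDH was -2.80 with shUGDH-1 and -2.89 with shUGDH-2 (adjusted p = 3.9e-36 and 1.2e-36). These p-values, and all adjusted p-values that follow, come from the quasi-likelihood test of edgeR, adjusted by Benjamini-Hochberg over all genes tested. The threshold was an adjusted p of 0.05, and "rose" or "fell" is used only for genes under it. In RNA from whole cultures, more cells that express a gene and more RNA per cell cannot be told apart.

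With shUGDH-1, 19 of the 35 tested genes rose and none fell. Of all genes tested, 10.5% rose and 10.3% fell in that comparison. With shUGDH-2, 15 rose and 2, CLDN12 and KRT80, fell, where 8.04% of all genes rose and 6.81% fell. The median log2 fold change of the 35 was 0.268 with shUGDH-1, against -0.003 for all genes, and 0.153 with shUGDH-2, against -0.006 for all genes. In 24 of the 35 the libraries of shUGDH-1 and shNT did not overlap, as in 4272 of all 12546 genes tested. For shUGDH-2 and shNT this held in 19 of the 35 and in 3581 of all genes. A lack of overlap in a gene is thus common, and below it only describes the values. The rises were mostly small. Among the genes that rose, log2 fold changes ran from 0.13 to 1.31 with shUGDH-1 (median 0.40) and from 0.07 to 1.06 with shUGDH-2 (median 0.38). SPINT1 was the 1 gene that reached 2-fold, and it did so with each hairpin. Both comparisons use the same 3 shNT libraries, so their agreement is given as a count and nothing is read from it: 14 of the genes rose in each, where 4.72% of all genes rose in each, and 0 fell in each, where 3.61% of all genes did. The other genes that rose in 1 comparison were CLDN7, LLGL2, EPCAM, SPINT2 and ESRP2 with shUGDH-1 and CLDN1 with shUGDH-2.

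**Figure D1:**
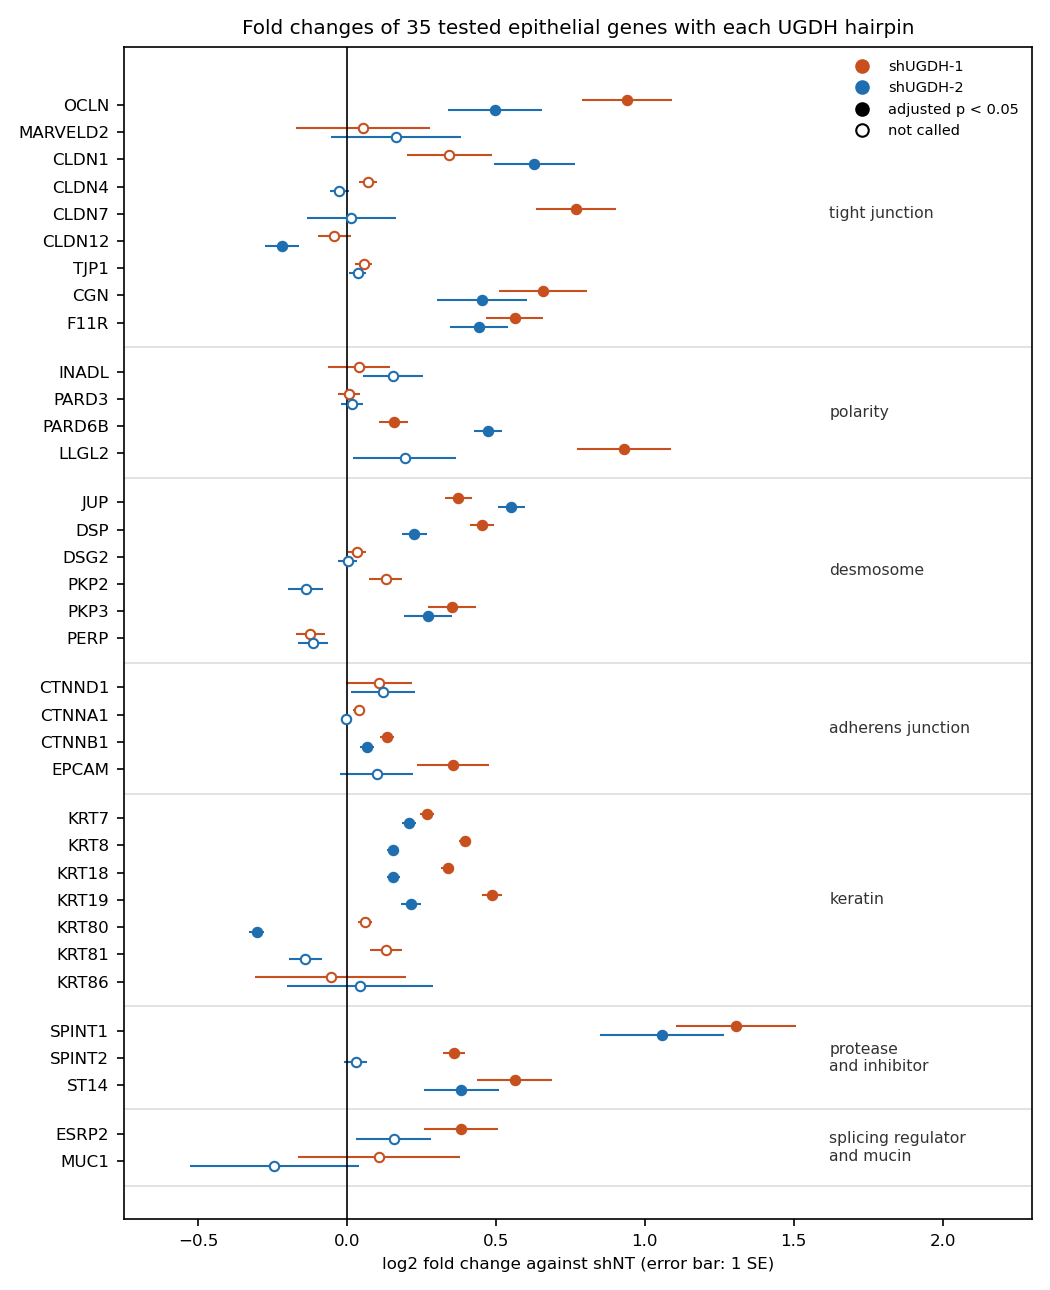
Log2 fold change of each of the 35 tested genes (horizontal axis) with shUGDH-1 and with shUGDH-2 against shNT, with bars of 1 standard error and filled points for genes that passed at an adjusted p under 0.05. SPINT1 lies farthest to the right with each hairpin, and KRT80 and CLDN12 are the filled points left of 0, both with shUGDH-2.

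In control cells the members were expressed over a wide range. Scaled to the exon length of each gene in GENCODE, simple-epithelial keratins led, with KRT18 at 128, KRT7 at 104 and KRT8 at 90.8 CPM per kilobase. The adherens junction gene CTNNA1 (86.1 CPM per kilobase) and KRT80 (81.9) followed, and CLDN4, at 38.5, was the highest tight junction gene. SPINT1 and OCLN, both at 0.600 CPM per kilobase, and LLGL2, at 0.482, were near the bottom of the 35. E-cadherin, CDH1, was not among them: it had 2, 2 and 4 counts in the 3 control libraries. On the CPM scale, which is not per length, 16 of the 35 lay under 20 CPM with shNT and 19 at or over it. For shUGDH-1 against shNT, 10 of the 16 passed upward, at a median log2 fold change over all 16 of 0.37. Of the 19, 9 did, and the median over all 19 was 0.13. For shUGDH-2 against shNT these counts were 7 of the 16 (median 0.178) and 8 of the 19 (median 0.029). The shares of all genes tested were not split by level, so nothing is read from these counts. Small fold changes pass more readily in abundant genes, whose counting error is lower.

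**Figure D2:**
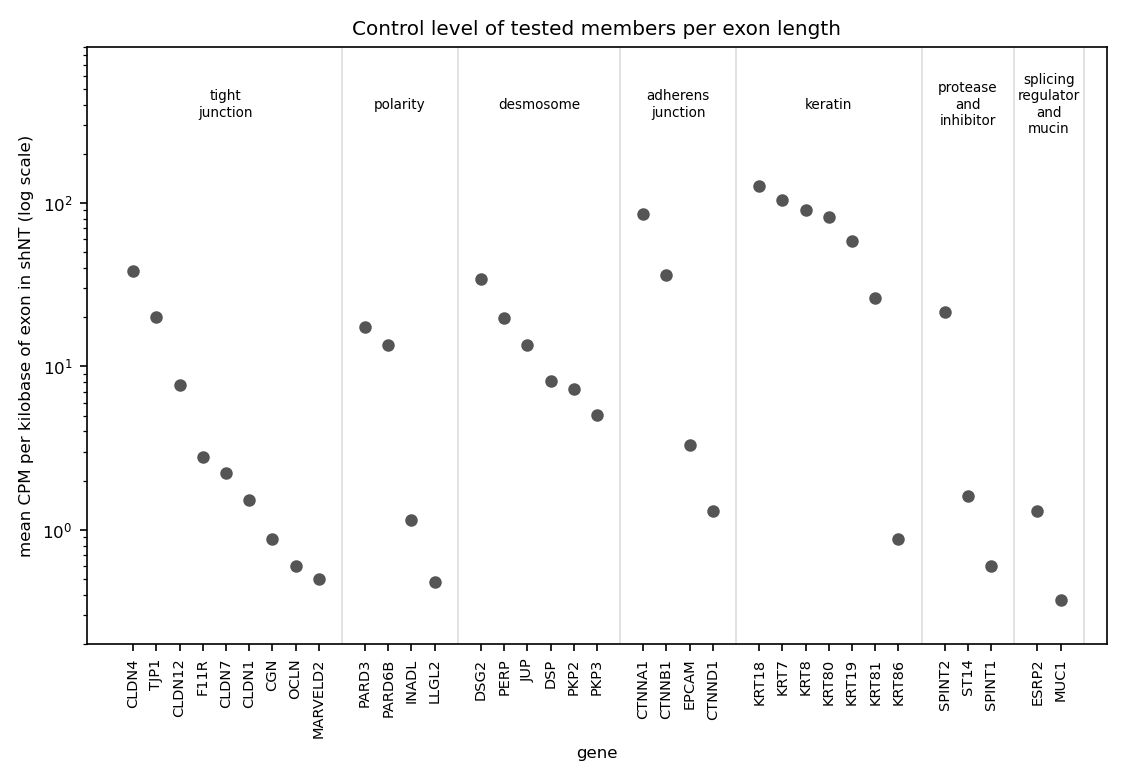
Mean level of each tested gene in the 3 shNT libraries, in CPM per kilobase of exon on a log axis. Genes are grouped by role and ordered by level within each role. KRT18, KRT7, KRT8 and CTNNA1 are at the top, above 85 CPM per kilobase, and OCLN, SPINT1, LLGL2 and MUC1 are near the bottom, at 0.600 or less.

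Short promoter motifs were present in some of the genes that rose and in some that did not pass. RefSeq promoter windows (GRCh38.p14, 250 bases before to 50 after the gene start) matched 22 of the 43 genes. They were searched on both strands for CACCTG, which reads CAGGTG on the other strand, the E-box that SNAI and ZEB repressors are known to bind, for GCCNNNGGC, an AP-2 site, and for AACCGGTT, a grainyhead-like site. The windows of 3 genes that rose with both hairpins are shown, with matches in capitals. No window with an AP-2 match, and none of a gene that did not pass, is among them. OCLN (chr5:69492297-69492596, + strand) has 1 E-box, 33 bases before the start. DSP (chr6:7541421-7541720, + strand) has 2, at 178 and 85 bases before it. SPINT1 (chr15:40843798-40844097, + strand) has none of the motifs.
OCLN: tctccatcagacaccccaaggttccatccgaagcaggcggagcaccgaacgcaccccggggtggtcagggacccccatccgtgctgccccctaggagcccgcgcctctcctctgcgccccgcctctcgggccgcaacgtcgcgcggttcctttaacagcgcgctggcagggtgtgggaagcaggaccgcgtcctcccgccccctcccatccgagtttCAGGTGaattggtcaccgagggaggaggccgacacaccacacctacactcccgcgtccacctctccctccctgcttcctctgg
DSP: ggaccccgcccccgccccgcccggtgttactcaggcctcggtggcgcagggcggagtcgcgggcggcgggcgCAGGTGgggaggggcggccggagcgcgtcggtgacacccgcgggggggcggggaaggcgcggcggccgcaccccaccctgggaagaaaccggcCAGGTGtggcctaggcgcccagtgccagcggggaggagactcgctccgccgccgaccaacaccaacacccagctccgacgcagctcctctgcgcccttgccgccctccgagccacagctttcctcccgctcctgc
SPINT1: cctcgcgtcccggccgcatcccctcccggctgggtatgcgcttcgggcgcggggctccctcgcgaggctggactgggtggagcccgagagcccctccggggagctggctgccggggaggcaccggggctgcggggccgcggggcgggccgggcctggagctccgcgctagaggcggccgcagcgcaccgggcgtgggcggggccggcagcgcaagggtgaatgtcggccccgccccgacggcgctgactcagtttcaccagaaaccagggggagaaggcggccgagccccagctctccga
The E-box was in 8 of the 22 windows (36.4%): those of OCLN, TJP1, INADL, CRB3, DSP, DSC2, DSG2 and MUC1. It was in 20.6% of all 27305 windows and in 18.1% of the 9273 windows of tested genes. Of its 8 carriers here, OCLN and DSP rose, TJP1, INADL, DSG2 and MUC1 did not pass with either hairpin, and CRB3 and DSC2 were not tested. The AP-2 letters were in 8 windows (36.4%), against 23.0% of all windows and 32.7% of those of tested genes. Among these carriers JUP and CTNNB1 rose with each hairpin and CLDN12 fell with shUGDH-2. INADL, DSG2, CTNNA1 and MUC1 did not pass with either, and DSC2 was not tested. The grainyhead-like letters were in none, against 0.1% of all windows. A match is a string of letters and not a bound site.

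Among the tight junction genes, 9 of 11 were tested, 4 rose with shUGDH-1 and 4 rose with shUGDH-2, while 1 fell with shUGDH-2. The 2 untested genes are described with the other genes of few reads. The median log2 fold change of the 9 was 0.343 with shUGDH-1 and 0.164 with shUGDH-2. OCLN encodes occludin, a membrane protein of the tight junction strand. Its level was 4, 3.83 and 4.34 CPM in the shNT libraries, 7.55, 7.67 and 8.25 in those with shUGDH-1, and 6.32, 5.39 and 5.5 in those with shUGDH-2. The 3 groups did not overlap, with shUGDH-1 highest. OCLN rose 1.92-fold with shUGDH-1 (log2 0.94, SE 0.15, adjusted p = 1.7e-06) and 1.41-fold with shUGDH-2 (log2 0.50, SE 0.16, adjusted p = 0.024). The call with shUGDH-2 was lost without shNT replicate 1 (adjusted p = 0.075), shNT replicate 2 (0.077) or shUGDH-2 replicate 1 (0.12), and with DESeq2 (0.11).

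The claudins behaved differently from each other. CLDN7, a claudin of simple epithelia, was at 4.92, 5.95 and 5.71 CPM with shNT, at 9.47, 8.95 and 9.88 with shUGDH-1 and at 5.90, 5.39 and 5.41 with shUGDH-2. All shUGDH-1 libraries stood above all others, and the shUGDH-2 libraries lay within the range of the controls. CLDN7 rose 1.70-fold with shUGDH-1 (log2 0.77, SE 0.14, adjusted p = 1.1e-05). With shUGDH-2 its log2 fold change was 0.01 (95% interval -0.278 to 0.306, adjusted p = 0.97). CLDN1, a barrier-forming claudin, was highest with shUGDH-2: 5.84, 5.19 and 5.79 CPM in the controls, 7.32, 7.22 and 6.73 with shUGDH-1 but 9.18, 7.70 and 9.21 with shUGDH-2. It rose 1.55-fold with shUGDH-2 (log2 0.63, SE 0.14, adjusted p = 0.00057). With shUGDH-1 its log2 fold change of 0.34 did not pass (SE 0.14, adjusted p = 0.08). The libraries of shUGDH-1 and shNT did not overlap, which held in 4272 of the 12546 genes tested. CLDN12, a widely expressed claudin without the usual scaffold-binding tail, fell with shUGDH-2, from 51.7 ± 3.27 to 44.5 ± 1.67 CPM (SD, n = 3; log2 -0.22, SE 0.06, adjusted p = 0.0037), and was at 50.1 ± 1.94 with shUGDH-1. Without shNT replicate 1 the fall did not pass (log2 -0.17, adjusted p = 0.057). CLDN4, the most abundant tight junction member per length, was within 10 CPM of its control mean in both knockdown means: 181 ± 5.68 CPM with shNT, 190 ± 4.40 with shUGDH-1 and 178 ± 3.25 with shUGDH-2.

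The scaffold and adhesion proteins of the tight junction divided in a similar way. F11R, the junctional adhesion molecule JAM-A, was at 13.7, 14.5 and 14 CPM with shNT, at 22.0, 17.7 and 23.2 with shUGDH-1 and at 17.8, 21.5 and 17.9 with shUGDH-2. Every knockdown library exceeded every control. F11R rose 1.48-fold with shUGDH-1 (log2 0.56, SE 0.10, adjusted p = 6.8e-06) and 1.36-fold with shUGDH-2 (log2 0.44, SE 0.10, adjusted p = 0.00071). Of the 76-base stretches of its transcript, 37.4% also belong to AL591806.3, an overlapping GENCODE gene on the same strand, so its counts depend on how shared reads were assigned. CGN, cingulin, which links the junction to actomyosin, was at 5.99, 6.12 and 5.37 CPM with shNT, at 8.70, 8.65 and 10.6 with shUGDH-1 and at 10.6, 6.55 and 6.95 with shUGDH-2. Replicate 1 of shUGDH-2 stood apart from replicates 2 and 3. CGN rose 1.58-fold with shUGDH-1 (log2 0.66, SE 0.15, adjusted p = 0.00062). The rise with shUGDH-2 (log2 0.45, SE 0.15, adjusted p = 0.033) rested on that replicate: without it the log2 fold change was 0.21 (adjusted p = 0.46). Without shNT replicate 3 the adjusted p was 0.12, and with DESeq2 it was also 0.12. TJP1, the scaffold ZO-1, had log2 fold changes of 0.06 and 0.04 (95% intervals up to 0.112 and 0.092) around a control level of 225 ± 4.83 CPM (SD, n = 3). MARVELD2, tricellulin, which seals the corners where cells meet, had log2 fold changes of 0.05 and 0.16, with intervals of -0.389 to 0.495 and -0.266 to 0.594 that leave room for changes of either sign.

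Polarity proteins set up the apical and basolateral sides of an epithelial cell, and 4 of the 5 on the list were tested. Of these, 2 rose with shUGDH-1 and 1 rose with shUGDH-2, with median log2 fold changes over the 4 of 0.099 and 0.173. LLGL2, a basolateral polarity protein, was at 3.61, 4.17 and 3.66 CPM with shNT, at 7.01, 7.90 and 6.73 with shUGDH-1 and at 4.89, 3.77 and 4.44 with shUGDH-2. The shUGDH-1 libraries stood clear of the rest, and the shUGDH-2 libraries overlapped the controls. LLGL2 rose 1.91-fold with shUGDH-1 (log2 0.93, SE 0.16, adjusted p = 5.6e-06), and with shUGDH-2 its log2 fold change was 0.19 (SE 0.17, adjusted p = 0.53). PARD6B, a subunit of the apical PAR complex, had the opposite order: 61.4, 63.2 and 66.5 CPM in the controls, 74.7, 70.1 and 67.2 with shUGDH-1 but 85.0, 89.6 and 90.3 with shUGDH-2. It rose 1.39-fold with shUGDH-2 (log2 0.47, SE 0.05, adjusted p = 3.1e-12) and 1.11-fold with shUGDH-1 (log2 0.16, SE 0.05, adjusted p = 0.015). The smaller rise did not pass without shNT replicate 1 (adjusted p = 0.078) or shUGDH-1 replicate 1 (0.14), or with DESeq2 (0.069). PARD3, the scaffold of the same complex, had log2 fold changes of 0.01 and 0.02, with 95% intervals of -0.067 to 0.077 and -0.054 to 0.089. INADL, the Crumbs-complex scaffold now named PATJ, had log2 fold changes of 0.04 and 0.15 and did not pass (adjusted p = 0.83 and 0.35).

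Of 8 listed desmosome genes, 6 were tested, and JUP, DSP and PKP3 rose with each hairpin while none fell. The median log2 fold change of the 6 was 0.241 with shUGDH-1 and 0.114 with shUGDH-2. JUP, plakoglobin, which serves both desmosomes and adherens junctions, was at 64.4, 68.9 and 67.0 CPM with shNT, at 85.1, 89.5 and 83.9 with shUGDH-1 and at 101, 94.7 and 97.6 with shUGDH-2. The 3 groups did not overlap, and shUGDH-2 was highest. JUP rose 1.29-fold with shUGDH-1 (log2 0.37, SE 0.04, adjusted p = 1.7e-09) and 1.47-fold with shUGDH-2 (log2 0.55, SE 0.04, adjusted p = 1.3e-15). DSP, desmoplakin, which ties the plaque to keratin filaments, was at 81.4, 82.7 and 81.4 CPM with shNT, at 111, 112 and 113 with shUGDH-1 and at 99.8, 96.0 and 91.5 with shUGDH-2. Here too the groups did not overlap, but shUGDH-1 was highest. DSP rose 1.37-fold with shUGDH-1 (log2 0.45, SE 0.04, adjusted p = 7.7e-14) and 1.17-fold with shUGDH-2 (log2 0.23, SE 0.04, adjusted p = 4.1e-05). Because the 2 plaque genes ranked the hairpins in opposite order, the ratio of JUP to DSP counts was 0.815 ± 0.022 with shNT, 0.769 ± 0.030 with shUGDH-1 and 1.02 ± 0.041 with shUGDH-2 (SD, n = 3).

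PKP3, plakophilin 3, went from 19.0 ± 1.02 CPM to 24.1 ± 0.55 with shUGDH-1 (SD, n = 3; log2 0.35, SE 0.08, adjusted p = 0.00058) and to 22.9 ± 1.46 with shUGDH-2 (log2 0.27, SE 0.08, adjusted p = 0.013). The shUGDH-2 call did not pass without shNT replicate 1 (adjusted p = 0.077) or shUGDH-2 replicate 1 (0.082), or with DESeq2 (0.071). PKP2, plakophilin 2, was on opposite sides of the control level, at 51.2 ± 1.95 CPM with shNT, 56.0 ± 3.00 with shUGDH-1 and 46.5 ± 4.17 with shUGDH-2. Neither of its comparisons with shNT passed (log2 0.13 and -0.14, adjusted p = 0.095 and 0.098), but each passed when 1 library was left out: shUGDH-1 replicate 1 (log2 0.17, adjusted p = 0.044) and shUGDH-2 replicate 2 (log2 -0.20, adjusted p = 0.027). DSG2, the desmosomal cadherin of simple epithelia and the only one tested, was at 212 ± 8.55 CPM with shNT, and its log2 fold changes were 0.03 and 0.00 (95% intervals -0.028 to 0.094 and -0.059 to 0.062). PERP, a desmosomal membrane protein and p53 target, was at 94.7, 79.4 and 81.5 CPM with shNT, where replicate 1 was high, and at means of 78.4 and 78.9 with the hairpins. It did not pass (log2 -0.12 and -0.11, adjusted p = 0.077 and 0.12). Left without shNT replicate 2, PERP fell with shUGDH-1 (log2 -0.17, adjusted p = 0.013) and with shUGDH-2 (log2 -0.16, adjusted p = 0.025), and without shNT replicate 3 it fell with shUGDH-1 (log2 -0.15, adjusted p = 0.042).

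Changes among the adherens junction genes were small. Of 6 genes, 4 were tested, of which CTNNB1 and EPCAM rose with shUGDH-1 and CTNNB1 with shUGDH-2, and the median log2 fold changes were 0.120 and 0.084. CTNNB1, beta-catenin, which links cadherin to alpha-catenin and is also the effector of Wnt signalling, was at 432, 432 and 428 CPM with shNT, at 473, 468 and 478 with shUGDH-1 and at 457, 464 and 434 with shUGDH-2. All knockdown libraries lay above the controls. Its log2 fold change was 0.13 with shUGDH-1 (SE 0.02, adjusted p = 8.1e-06) and 0.07 with shUGDH-2 (SE 0.02, adjusted p = 0.034). The call with shUGDH-2 was lost without shNT replicate 3 (adjusted p = 0.094), shUGDH-2 replicate 1 (0.13) or shUGDH-2 replicate 2 (0.22), and with DESeq2 (0.099). That call was also lost when only the groups compared were fitted (0.051). The rise of JUP was larger than that of its close relative, so the ratio of JUP to CTNNB1 counts went from 0.155 ± 0.005 with shNT to 0.182 ± 0.008 with shUGDH-1 and 0.217 ± 0.011 with shUGDH-2 (SD, n = 3). EPCAM, an epithelial adhesion molecule, went from 8.35 ± 0.89 to 10.8 ± 1.07 CPM with shUGDH-1 (SD, n = 3; log2 0.36, SE 0.12, adjusted p = 0.026) and was at 8.97 ± 0.49 with shUGDH-2. Its call was lost without shNT replicate 2 (adjusted p = 0.14), shUGDH-1 replicate 2 (0.086) or shUGDH-1 replicate 3 (0.11), and with DESeq2 (0.11). CTNNA1, alpha-catenin, was at 760 ± 9.24 CPM with shNT and 759 ± 6.90 with shUGDH-2, with a 95% interval of -0.039 to 0.035 for that log2 difference, and its log2 fold change with shUGDH-1 was 0.04 (adjusted p = 0.15). CTNND1, p120-catenin, which keeps cadherins at the membrane, did not pass (log2 0.11 and 0.12, adjusted p = 0.56 and 0.53).

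All 7 keratins were tested. KRT7, KRT8, KRT18 and KRT19 rose with each hairpin, while KRT80 fell with shUGDH-2. The median log2 fold change of the 7 was 0.268 with shUGDH-1 and 0.155 with shUGDH-2. KRT8 and KRT18 form the obligate type II and type I filament pair of simple epithelia. KRT8 was at 616, 633 and 625 CPM with shNT, at 834, 806 and 826 with shUGDH-1 and at 702, 677 and 708 with shUGDH-2. KRT18 was at 409, 408 and 414 CPM with shNT, at 515, 519 and 523 with shUGDH-1 and at 454, 460 and 457 with shUGDH-2. In both genes the 3 groups were fully separated, in the order shNT, shUGDH-2, shUGDH-1. KRT8 rose 1.31-fold with shUGDH-1 (log2 0.40, SE 0.02, adjusted p = 2.6e-24) and 1.11-fold with shUGDH-2 (adjusted p = 3.7e-08). KRT18 rose 1.26-fold with shUGDH-1 (log2 0.34, SE 0.02, adjusted p = 6.6e-20) and 1.11-fold with shUGDH-2 (adjusted p = 1.8e-07). The ratio of KRT8 to KRT18 counts was 1.52 ± 0.025 with shNT, 1.58 ± 0.033 with shUGDH-1 and 1.52 ± 0.045 with shUGDH-2 (SD, n = 3).

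The partners of other filament pairs followed the same order or broke it. KRT19, the small type I keratin without a tail, was at 138, 135 and 135 CPM with shNT, at 186, 188 and 200 with shUGDH-1 and at 161, 153 and 160 with shUGDH-2. It had the largest rise of the 7 with shUGDH-1, 1.40-fold (log2 0.49, SE 0.03, adjusted p = 1.5e-18), and rose 1.16-fold with shUGDH-2 (adjusted p = 2.9e-06). KRT7, a type II keratin of glandular epithelium, went from 425 ± 7.92 CPM to 513 ± 15.3 with shUGDH-1 (SD, n = 3; log2 0.27, SE 0.02, adjusted p = 9.3e-15) and 491 ± 4.48 with shUGDH-2 (log2 0.21, SE 0.02, adjusted p = 1.4e-10). KRT80, a type II keratin tied to desmosomes, was at 352, 361 and 355 CPM with shNT, at 368, 373 and 374 with shUGDH-1 and at 293, 281 and 292 with shUGDH-2. The shUGDH-2 libraries were the lowest and did not overlap with the others. KRT80 fell with shUGDH-2 (log2 -0.30, SE 0.03, adjusted p = 2.4e-15) and did not pass with shUGDH-1 (log2 0.06, SE 0.02, adjusted p = 0.062), where it passed without shNT replicate 2 (adjusted p = 0.047). Against KRT8, KRT80 counts went from a ratio of 0.570 ± 0.002 with shNT to 0.453 ± 0.011 with shUGDH-1 and 0.415 ± 0.002 with shUGDH-2 (SD, n = 3).

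The counts of the hair keratins KRT81 and KRT86 are not fully separate, because parts of their transcripts have the same sequence. KRT81 was at 50.7 ± 3.05 CPM with shNT, 55.7 ± 2.79 with shUGDH-1 and 46.0 ± 1.67 with shUGDH-2 (SD, n = 3), and neither comparison with shNT passed (adjusted p = 0.081 and 0.082). It rose with shUGDH-1 when shNT replicate 1 (adjusted p = 0.027) or shUGDH-1 replicate 2 (0.04) was left out, and fell with shUGDH-2 without shNT replicate 3 (0.039). KRT86 was at 2.10 ± 0.50 CPM with shNT, with log2 fold changes of -0.06 and 0.04. Of the 76-base stretches (the read length) in the longest KRT86 transcript, 28.4% also occur in KRT81, and 32.8% of those of KRT81 occur in KRT86. How reads from these stretches were divided between the 2 genes depends on the counting. KRT8 and KRT18 lie beside each other on chromosome 12 on opposite strands and share 525 exon bases in GENCODE, 7.6% of the exon length of KRT8 and 16.3% of that of KRT18. Whether the counting used strand is not given in the sources used here, so some of their reads cannot be assigned to 1 of them.

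**Figure D3:**
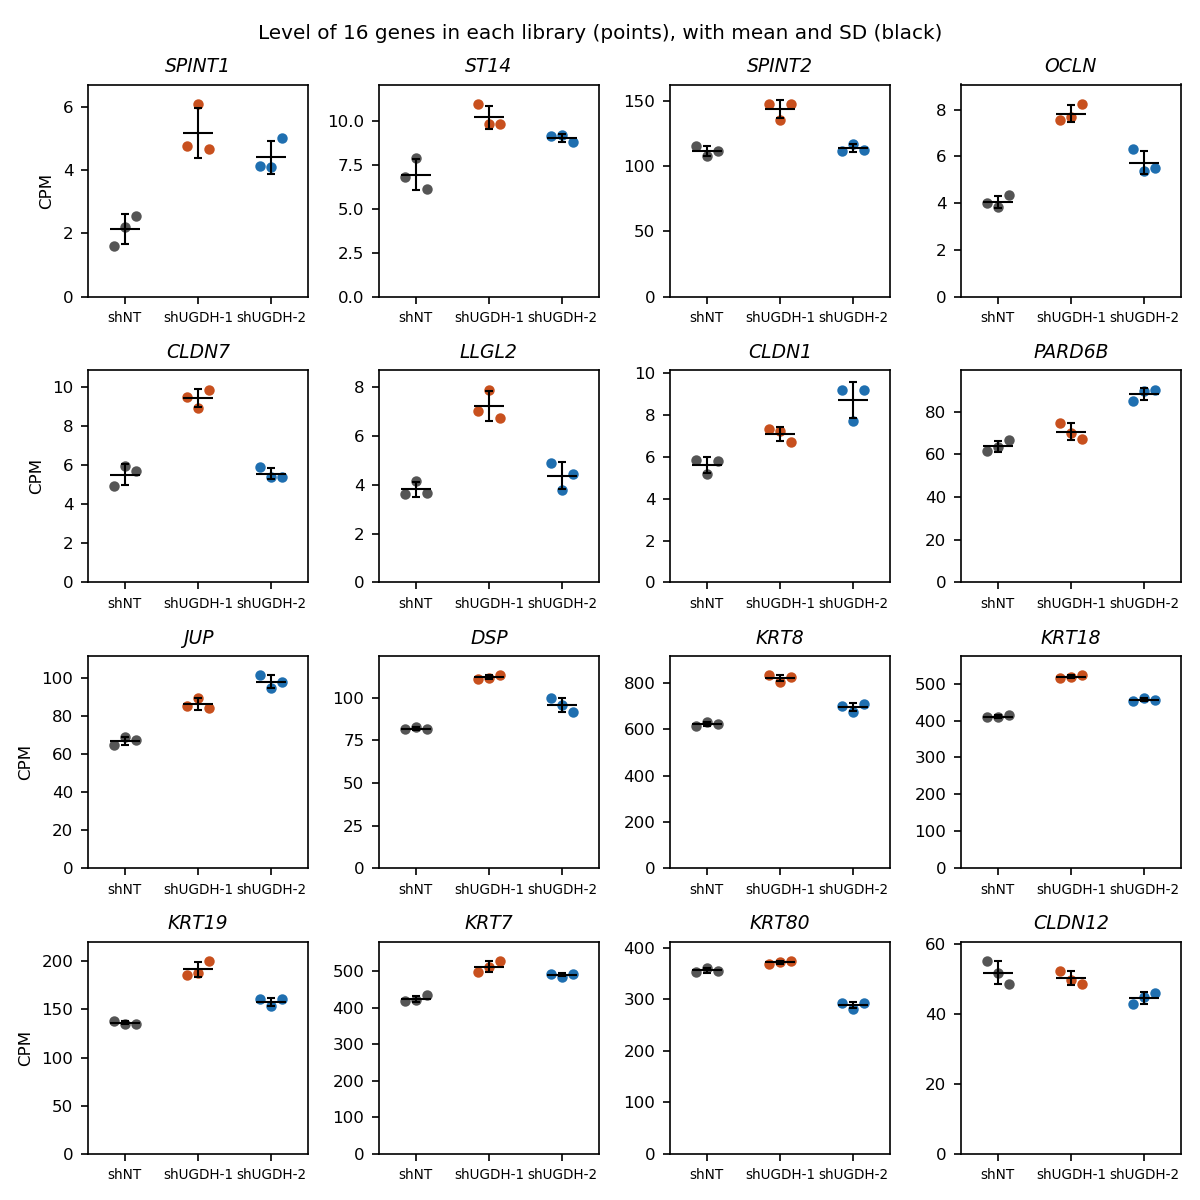
Level in CPM (vertical axes, each panel on its own scale) of 16 of the genes in each of the 9 libraries, with the mean and SD of the 3 libraries per hairpin. In the OCLN, DSP, KRT8, KRT18 and KRT19 panels the groups are fully separated with shUGDH-1 highest, in the JUP and PARD6B panels shUGDH-2 is highest, and in the CLDN7, LLGL2 and SPINT2 panels the shUGDH-2 libraries lie with or near the controls.

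The protease ST14 and its inhibitors gave the largest fold change of the set. All 3 were tested. With shUGDH-1 all 3 rose, 2 of them also with shUGDH-2, and the median log2 fold changes were 0.563 and 0.384. ST14 encodes matriptase, a serine protease of the epithelial surface, and SPINT1 and SPINT2 encode HAI-1 and HAI-2, the Kunitz-type inhibitors that restrain it. SPINT1 was at 1.61, 2.21 and 2.56 CPM with shNT, at 4.77, 6.09 and 4.67 with shUGDH-1 and at 4.13, 4.08 and 5.01 with shUGDH-2. Every knockdown library was above every control, on raw counts of 21, 26 and 30 in the controls and 43 to 81 in the knockdown libraries. SPINT1 rose 2.47-fold with shUGDH-1 (log2 1.31, SE 0.20, adjusted p = 7.5e-07) and 2.08-fold with shUGDH-2 (log2 1.06, SE 0.21, adjusted p = 0.00013). ST14 was at 6.84, 7.91 and 6.13 CPM with shNT, at 11, 9.86 and 9.88 with shUGDH-1 and at 9.18, 9.24 and 8.81 with shUGDH-2, again with no overlap between controls and knockdowns. ST14 rose 1.48-fold with shUGDH-1 (log2 0.56, SE 0.13, adjusted p = 0.00047) and 1.30-fold with shUGDH-2 (log2 0.38, SE 0.13, adjusted p = 0.03). The shUGDH-2 call of ST14 was at an adjusted p of 0.08 without shUGDH-2 replicate 1, 0.088 without shNT replicate 1, 0.15 without shNT replicate 3 and 0.13 with DESeq2. Without shUGDH-2 replicate 2 (0.082) or replicate 3 (0.05) it did not pass either. SPINT2, the more abundant inhibitor, was at 115, 108 and 112 CPM with shNT, at 147, 136 and 148 with shUGDH-1 and at 112, 117 and 112 with shUGDH-2. It rose 1.28-fold with shUGDH-1 (log2 0.36, SE 0.04, adjusted p = 2.2e-11), while with shUGDH-2 its libraries overlapped the controls (log2 0.03, 95% interval -0.047 to 0.105). The ratio of SPINT1 to ST14 counts was 0.311 ± 0.094 with shNT, 0.508 ± 0.097 with shUGDH-1 and 0.487 ± 0.071 with shUGDH-2 (SD, n = 3).

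The last role holds 2 epithelial splicing regulators and a mucin, of which ESRP2 and MUC1 were tested. ESRP2, which drives epithelial exon choice, was at 7.07, 7.65 and 6.99 CPM with shNT, at 9.32, 9.71 and 9.22 with shUGDH-1 and at 7.83, 8.55 and 7.76 with shUGDH-2. It rose 1.30-fold with shUGDH-1 (log2 0.38, SE 0.12, adjusted p = 0.02) and did not pass with shUGDH-2 (log2 0.16, adjusted p = 0.48). The rise did not pass without shNT replicate 1 (adjusted p = 0.065), shNT replicate 3 (0.062) or shUGDH-1 replicate 2 (0.078), or with DESeq2 (0.1). MUC1, a membrane mucin of the apical surface, was under 2.5 CPM in mean in every group and did not pass (adjusted p = 0.83 and 0.64).

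In all, 8 genes had too few reads to be tested, and none exceeded 13 counts in a library. E-cadherin is the cadherin whose loss defines the mesenchymal state. CDH1 had 2, 2 and 4 counts in the controls, 9, 9 and 3 with shUGDH-1, then 13, 12 and 5 with shUGDH-2, or 8, 21 and 30 counts per group. In a fit without the filter on low counts the log2 fold change of CDH1 was 1.83 with shUGDH-2 (SE 0.58, adjusted p = 0.02) and 1.39 with shUGDH-1 (SE 0.63, adjusted p = 0.13), and its level stayed at or under 1.1 CPM in every library. CDH3, P-cadherin, had 0, 3 and 1 counts in the controls, 6, 4 and 7 with shUGDH-1, then 10, 4 and 0 with shUGDH-2. TJP3, the scaffold ZO-3, had group totals of 10, 24 and 25 counts (shNT, shUGDH-1 and shUGDH-2). PKP1, plakophilin 1, had 3, 10 and 0 counts, and desmocollin 2, DSC2, had 0, 0 and 4. MARVELD3 (0, 2 and 3 counts), the Crumbs protein gene CRB3 (1, 4 and 1) and ESRP1 (1, 2 and 5) were at the edge of detection. Replicate 1 of shUGDH-2 held 10 of the 14 CDH3 counts, all 5 ESRP1 counts and 3 of the 4 DSC2 counts of its group. The desmosomal and classical cadherins of epithelia were thus represented by DSG2 with over 200 CPM and by CDH1, CDH3 and DSC2 with a few counts each.

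The 2 hairpins differed from each other in many of these genes. Tested directly, 13 of the 35 were lower with shUGDH-2 than with shUGDH-1 and 2 were higher, where 5.51% of all genes were lower and 5.36% higher. The median log2 difference of the 35 was -0.175, against -0.001 for all genes. Of the 19 genes that rose with shUGDH-1, 17 had a smaller fold change with shUGDH-2, which passed the direct test in 8. The 19 were picked by their shUGDH-1 values, which by itself favours a smaller fold change with shUGDH-2. The matching share of all genes that rose with shUGDH-1 was not computed, so nothing is read from these counts. The 13 lower genes were OCLN, CLDN4, CLDN7, CLDN12, LLGL2, DSP, PKP2, KRT8, KRT18, KRT19, KRT80, KRT81 and SPINT2. CLDN7 and LLGL2 differed most, with log2 differences of -0.75 (SE 0.13, adjusted p = 2.3e-05) and -0.74 (SE 0.15, adjusted p = 0.0003). SPINT2 (log2 -0.33, adjusted p = 4.9e-10) and KRT80 (log2 -0.36, adjusted p = 1.3e-18) followed among the abundant genes. PARD6B (log2 0.32, adjusted p = 2.8e-07) and JUP (log2 0.18, adjusted p = 0.0018) were higher with shUGDH-2. SPINT1 did not pass (log2 -0.25, 95% interval -0.581 to 0.086). Residual UGDH, at means of 7.65 CPM (shUGDH-1) and 7.17 CPM (shUGDH-2), was close to equal.

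**Figure D4:**
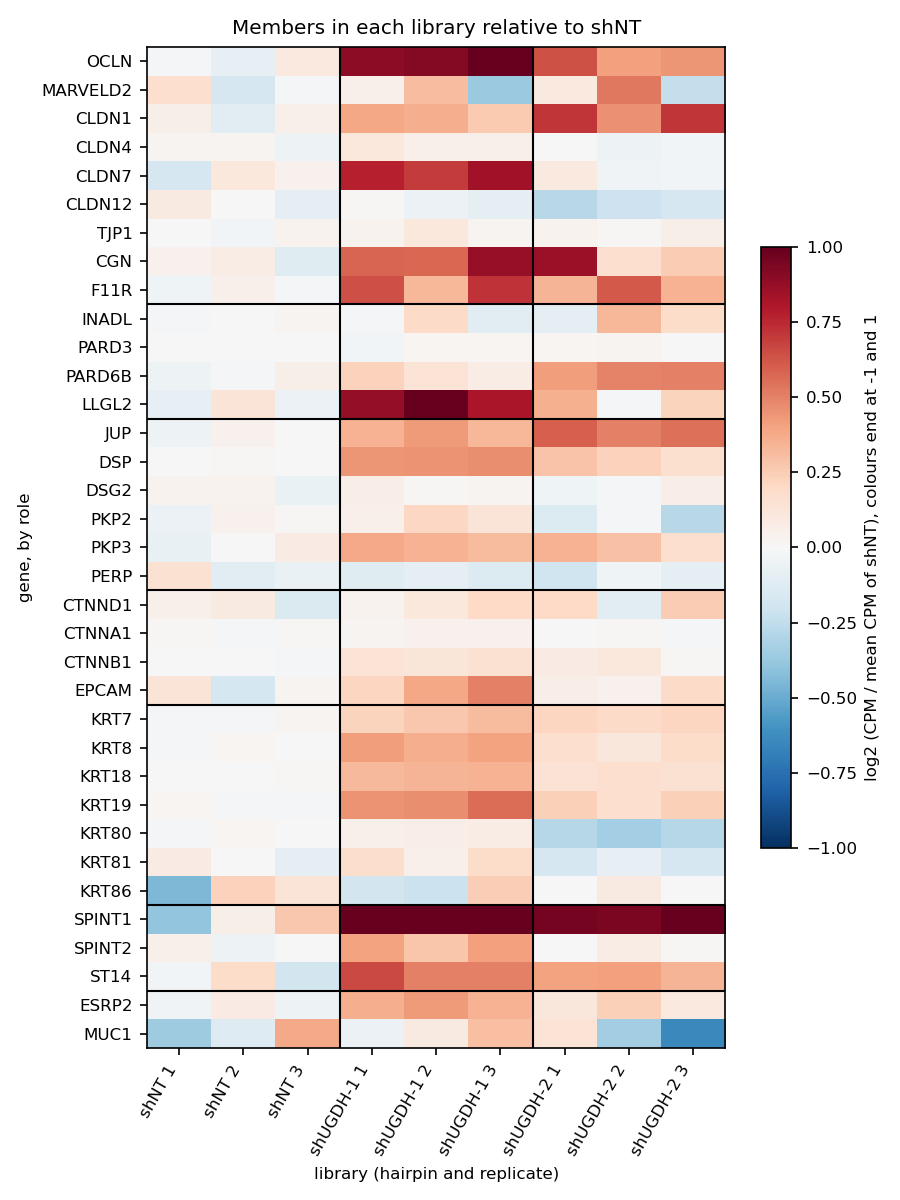
Log2 ratio of each library's CPM to the mean of the 3 shNT libraries for the 35 tested genes (rows, by role) in the 9 libraries (columns), with colours limited to 1 either way. The shUGDH-1 columns are red in most rows, the shUGDH-2 columns are paler, and KRT80 and CLDN12 are blue in the shUGDH-2 columns.

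Hairpins can also act on transcripts that match bases 2 to 8 of their guide, the seed. The sequences in the labels are shown with these bases in capitals. The labels do not state the base at which the processed guide starts, so the seed is that of the sequence as given.
shNT: aTCTCGCTtgggcgagagtaag
shUGDH-1: tTGCATCAaatatgcgacg
shUGDH-2: aTATACTTcagatctgctg
Both UGDH sequences are antisense to UGDH transcripts, and that of shNT matched no coding transcript. The 7 letters opposite the shUGDH-2 seed, AAGTATA, occurred in the longest annotated 3′ UTR of 8 of the 35 genes (22.9%), against 15.1% of 11812 tested genes with a 3′ UTR. Those of shUGDH-1, TGATGCA, occurred in 1 (PERP, 2.9% against 11.3%), and those of shNT, AGCGAGA, in 0 (against 6.1%). The 8 genes were OCLN, CLDN12, F11R, INADL, DSG2, PKP2, KRT80 and SPINT2. Of these, 5 were lower with shUGDH-2 than with shUGDH-1 and 0 higher, at a median log2 difference of -0.22. Of the 27 without the letters, 8 were lower and 2 higher, at a median of -0.10. Over all genes tested, 5.51% were lower and 5.36% higher. These shares were not split by the letters, and the shares of genes with the letters were not matched for 3′ UTR length. Nothing about the seed is therefore read from the counts. Against shNT, the 2 genes that fell with shUGDH-2, KRT80 and CLDN12, both carry the letters, and OCLN and F11R carry them and rose. CLDN7 and LLGL2, with the largest differences between the hairpins, do not carry the letters. A role of the seed in any of these values was not tested.

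Among the carriers of these letters, F11R, INADL (3 matches) and DSG2 did not differ between the hairpins by test (log2 -0.12, 0.11 and -0.03). Their sites are not shown. The sites in the 5 genes that carry the letters and were lower with shUGDH-2 are shown with 10 bases to each side (GRCh38, GENCODE transcripts, letters of the transcript strand, match in capitals). KRT80 has it at chr12:52169705-52169731 (- strand), CLDN12 at chr7:90413563-90413589 (+ strand), PKP2 at chr12:32791917-32791943 (- strand) and SPINT2 at chr19:38292350-38292376 (+ strand). OCLN has 2 matches, at chr5:69556226-69556252 and chr5:69556272-69556298 (+ strand).
KRT80: aagacatataAAGTATAtattattttt
CLDN12: tttttatgagAAGTATAttatattaaa
PKP2: atccaggagaAAGTATAatggcaaaat
SPINT2: tggtttttttAAGTATAaacaaaagtt
OCLN first match: tttgtattaaAAGTATAtaggatcatt
OCLN second match: aaatacagaaAAGTATAaaatataagt

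The same structures hold other genes that are not among the 43. Of 240 such genes of tight, adherens and gap junctions, desmosomes, hemidesmosomes, polarity, keratins, epithelial proteases, splicing and mucins, 228 were in the table and 99 were tested. With shUGDH-1, 25 rose and 12 fell (median log2 fold change 0.041), and with shUGDH-2, 20 rose and 7 fell (median 0.028). Over all genes tested the shares were 10.5% up and 10.3% down with shUGDH-1, and 8.04% up and 6.81% down with shUGDH-2, so the falls in the lists were near the background. Of 22 other tight junction genes, 5 rose and 1 fell with shUGDH-1. They include LSR, the lipolysis-stimulated receptor that recruits tricellulin, which went from a mean of 67.7 to 96.0 CPM with shUGDH-1 (log2 0.51, adjusted p = 7.8e-14) and 82.2 with shUGDH-2 (log2 0.28, adjusted p = 7e-06). Of 5 other desmosome genes, PPL, periplakin, rose with each hairpin (log2 0.40 and 0.24, adjusted p = 1.6e-05 and 0.017), and EVPL, envoplakin, rose with shUGDH-1 (log2 0.37, adjusted p = 9.5e-11). Of 15 other polarity genes, 1 rose with shUGDH-1, PRKCZ, the atypical protein kinase C of the PAR complex (log2 0.75, adjusted p = 4.3e-05), and 1 rose with shUGDH-2, PARD3B, a relative of PARD3 (log2 0.34, adjusted p = 0.026), so each count is below the share over all genes. Of 18 other adherens junction genes, shUGDH-1 raised 6 and lowered 2, while shUGDH-2 raised 9 and lowered 2, against the shares over all genes given above. Of those called the same way with both hairpins, ranked by the smaller fold change, CDH11, a cadherin of mesenchymal cells, came first. It rose from 16.9 to 30.1 CPM with shUGDH-1 (log2 0.83, adjusted p = 1.4e-12) and to 24.1 with shUGDH-2 (log2 0.50, adjusted p = 6.2e-06). Of 49 other keratins, 3 were tested and none passed.

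Marker genes of the cell line and of other cell types were checked in all libraries. ESR1 was at or under 1 CPM and PGR at 0 in every library, while EGFR was at a mean of 271 CPM and ERBB2 at 117 CPM with shNT. ERBB2 rose with each hairpin (log2 0.11 in both, adjusted p = 0.023 and 0.028), and EGFR with shUGDH-1 (log2 0.08, adjusted p = 0.024). The summed level of 12 mesenchymal genes was 5845 to 6004 CPM over the shNT libraries, 6283 to 6345 with shUGDH-1 and 5936 to 6052 with shUGDH-2. Vimentin, VIM, rose with shUGDH-1 (log2 0.18, adjusted p = 1.2e-13) and not with shUGDH-2 (log2 -0.04, adjusted p = 0.086), and fibronectin, FN1, rose with each (log2 0.45 and 0.24, adjusted p = 3e-17 and 1.7e-07). AXL, another of the 12, also rose with each (log2 0.05 and 0.06, adjusted p = 0.015 and 0.0051). VIM, FN1, AXL and 19 of the junction and keratin genes were thus all higher with shUGDH-1. Among repressors of epithelial genes, ZEB1 (log2 -0.12, adjusted p = 0.043) and SNAI2 (log2 -0.18, adjusted p = 0.0051) fell with shUGDH-1. With shUGDH-2 neither passed (log2 -0.04 and 0.09). SNAI1 and ZEB2 did not pass, and TWIST1 and TWIST2 had no counts. The summed level of 10 markers of normal mammary luminal and basal cells was 45.9 to 53.1 CPM with shNT, 53.7 to 60.04 with shUGDH-1 and 55.5 to 62.6 with shUGDH-2, with FOXA1, ELF5, KIT and MYH11 at or under 1 CPM throughout. Of its 4 tested genes, GATA3 rose with shUGDH-2 (log2 0.29, adjusted p = 0.0004) and OXTR with shUGDH-1 (log2 0.44, adjusted p = 0.017). The basal keratins KRT5 and KRT14 were not tested and were uneven between replicates. KRT5 had 1, 0 and 4 counts in the controls, 1, 15 and 7 with shUGDH-1, then 25, 3 and 0 with shUGDH-2. KRT14 had 0, 0 and 3 counts in the controls, 0, 22 and 6 with shUGDH-1, then 15, 0 and 0 with shUGDH-2. Both were high in shUGDH-2 replicate 1, the library that within its group also held the most CDH3 and ESRP1 counts and the highest CGN level, and in shUGDH-1 replicate 2, which held the most PKP1 counts. Of 8 leukocyte markers, 6, including PTPRC, CD3E and LYZ, did not exceed 1 CPM in any library. The sum, nearly all CD68, was 93.5 to 101 CPM with shNT and 85.0 to 93.7 with the hairpins. CD68 fell with each hairpin (log2 -0.16 and -0.12, adjusted p = 0.0038 and 0.042). Of 8 fibroblast markers 5 did not exceed 1 CPM, and DCN and LUM had no counts (sum 34.1 to 37.9 CPM with shNT, 41.4 to 44.2 with shUGDH-1 and 38.4 to 40.4 with shUGDH-2). Of the 3 tested, COL1A2 rose with shUGDH-1 (log2 0.91, adjusted p = 2.4e-07) and fell with shUGDH-2 (log2 -0.70, adjusted p = 0.0019). COL1A1 rose with shUGDH-2 (log2 0.42, adjusted p = 0.0035), and PDGFRB did not pass. Of 6 endothelial markers 5 did not exceed 1 CPM. A list of RNA quality genes, with 5 in the table, summed to 533 to 657 CPM with shNT, 513 to 545 with shUGDH-1 and 545 to 578 with shUGDH-2. Its member MALAT1 was at 287, 187 and 192 CPM in the shNT libraries, highest in replicate 1, and did not pass. NEAT1 fell with shUGDH-1 (log2 -0.13, adjusted p = 0.00024). The part of these levels in the changes of junction and keratin genes was not tested.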

How the data were processed

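RNA-seq libraries of 9 MDA-MB-231 cultures were compared as 3 groups of 3. The deposited count table holds whole-number read counts per gene symbol, and per the submitters' processing notes STAR, DESeq, DESeq2 and the build hg19 were used. Neither the annotation nor how reads were counted, strand included, is stated there. For each gene the authors' deposited comparison tables hold a log2 fold change, a p-value and a mean signal, named baseMean, per the file headers. Of 23710 entries, 28 had symbols turned into dates (0.232% of the counts) and were kept without a name.

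Counts were filtered with filterByExpr (12546 genes left), scaled with TMM factors of 0.997 to 1.003, then fitted in edgeR 4.0.16 (R 4.3.3, limma 3.58.1) by robust quasi-likelihood over all 9 libraries with 1 mean per group. The fit left 6 residual degrees of freedom. The common biological coefficient of variation was 0.0202, and replicate pairs showed 1.2 to 1.91 times the counting variance. The script was tested on simulated counts. Alternatives were RLE factors, library size alone, DESeq2 1.42.0, other filters, only the groups compared, a replicate block and leaving out each library.

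All 43 genes were named by role, and further genes from fixed lists if they passed at a mean of at least 1 CPM. The members and lists were chosen with earlier results of these data known. Gene lengths and 3′ UTRs came from GENCODE v29 and promoters from RefSeq (both GRCh38), with no coordinate converted.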

Additional observations from a re-analysis of the deposited data

Results flagged for a closer look

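Between the 2 UGDH hairpins, 15 of the 35 tested genes differed by edgeR's quasi-likelihood test of shUGDH-2 against shUGDH-1, which is the test of the difference between their effects, since both are set against the same controls. The log2 difference was negative, lower with shUGDH-2, for CLDN7 (-0.75), LLGL2 (-0.74), OCLN (-0.44), KRT80 (-0.36), SPINT2 (-0.33), KRT19 (-0.27), KRT81 (-0.27), PKP2 (-0.27), KRT8 (-0.24), DSP (-0.23), KRT18 (-0.18), CLDN12 (-0.18) and CLDN4 (-0.1). It was positive for PARD6B (0.32) and JUP (0.18). For PKP2 and KRT81 neither comparison with shNT passed, and the difference between the hairpins did. The calls of OCLN, CLDN12 and CLDN4 were each lost when 1 library was left out, and the other 12 held under every alternative tried.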

How the results depend on the processing

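Of the 35 tested junction and keratin genes, none had a call that changed direction under the alternatives tried, which were not run gene by gene for the other lists and the markers. With DESeq2 fewer genes passed: 1632 with shUGDH-1 (2605 with edgeR), 1005 with shUGDH-2 (1864), 793 between the hairpins (1363) and 542 the same way with both (1045). Of the junction and keratin genes, 16 then rose with shUGDH-1, 10 with shUGDH-2 and 8 with both (14 with edgeR). With the replicate number as a block, 19, 15 and 14 rose, the same as without it, and 2582, 1857 and 1326 genes passed. Same-numbered libraries correlated at -0.097 to 0.169 and differently numbered ones at -0.127 to 0.103, so no clear pairing by number was seen. The correlations were of deviations from means of 3 libraries, which cannot exclude a pairing.

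Leaving out 1 library gave 18 to 19 genes up with shUGDH-1, 10 to 16 with shUGDH-2 and 9 to 14 with both, the 9 without shUGDH-2 replicate 1. Genes down numbered 0 to 1 with shUGDH-1 (PERP, without shNT replicate 2 or 3), 1 to 3 with shUGDH-2 (1 without shNT replicate 1) and 0 to 1 with both. The median log2 fold change ran from 0.249 to 0.338 with shUGDH-1 (0.338 without shNT replicate 3) and from 0.11 to 0.155 with shUGDH-2 (0.118 without shUGDH-2 replicate 1, 0.11 without replicate 2). The cause was not tested.

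Under all 16 alternatives 16 of the 19 rises with shUGDH-1 kept their call (not EPCAM, ESRP2 and PARD6B), as did 11 of the 17 calls with shUGDH-2 (not CGN, CLDN12, CTNNB1, OCLN, PKP3 and ST14). The authors' deposited tables call 17 of the genes with shUGDH-1 and 13 with shUGDH-2, all of them among the calls given here. Depth limits the 8 genes of 13 or fewer counts per library.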

Other observations

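The hemidesmosome, which anchors the base of an epithelial cell to laminin, was measured in full: all 9 listed genes were tested. With shUGDH-1, 4 rose and 1 fell, and with shUGDH-2, 1 rose and 1 fell, where 10.5% and 8.04% of all genes rose. ITGB4, the integrin beta-4 subunit of that anchor, went from a mean of 385 to 551 CPM with shUGDH-1 (log2 0.52, adjusted p = 1.1e-28, edgeR) and to 410 with shUGDH-2 (log2 0.09, adjusted p = 0.0026). LAMB3, a chain of the laminin it binds, fell with each, from 587 to 487 CPM with shUGDH-1 (log2 -0.27, adjusted p = 2.4e-16, edgeR) and to 551 with shUGDH-2 (log2 -0.09, adjusted p = 0.0009). Its other integrin subunit, ITGA6, rose with shUGDH-1 (log2 0.09, adjusted p = 0.00094, edgeR).

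Among other membrane proteins of epithelial surfaces, the mucin MUC4 rose with shUGDH-1, from 2.56 to 5.15 CPM (log2 1.00, adjusted p = 7.3e-05, edgeR), and was at 2.14 CPM with shUGDH-2 (log2 -0.25, adjusted p = 0.56). PLAU, the urokinase protease, fell with each hairpin (log2 -0.18 and -0.07, adjusted p = 2.1e-12 and 0.0043, edgeR). RBM47, an RNA-binding protein of epithelia, rose with each (log2 0.14 and 0.17, adjusted p = 0.045 and 0.02, edgeR). MBNL1, a splicing regulator on the same list, fell with each (log2 -0.17 and -0.12, adjusted p = 5.5e-05 and 0.0093, edgeR). Of the 9 tested genes of that list, which holds other splicing regulators and mucins, shUGDH-1 raised 3 and lowered 4, while shUGDH-2 raised 2 and lowered 1. Over all genes tested the shares were 10.5% up and 10.3% down with shUGDH-1, then 8.04% up and 6.81% down with shUGDH-2. Of 7 gap junction genes tested, 2 rose and 1 fell with shUGDH-1 and none passed with shUGDH-2 in edgeR's test, against the same shares.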
